A study of Mus musculus with 6 samples.

Results

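The genes described here are 10 BMP response genes of mouse rib chondrocytes, taken by symbol from the 27734 genes of the deposited expression table, and all 10 had a row. They comprised the Id family (Id1, Id2, Id3 and Id4), the induced regulators Bambi, Atoh8, Msx1 and Msx2, and the BMP antagonists Nog and Grem1. Chondrocytes, the cartilage-forming cells, came from ribs of E18.5 embryos and were sequenced without culture after pronase and overnight collagenase digestion. There were 3 wild-type libraries and 3 libraries of the genotype Jab1flox/flox; Col2a1-Cre, called mutant here, in which Cre driven by Col2a1 acts in cartilage cells. Jab1 is the product of Cops5 and the catalytic part of the COP9 signalosome, which takes Nedd8 off cullins. The labels do not say whether the wild-type animals carried floxed alleles or Cre, give no strain or sex, and do not tell if a library is 1 embryo or a pool. The comparison asks how these genes differ between mutant and wild-type chondrocytes.

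Bone morphogenetic proteins (BMPs) bind paired type I and type II serine/threonine kinase receptors, which phosphorylate SMAD1, SMAD5 and SMAD9. These join SMAD4, enter the nucleus and bind GC-rich elements and the SMAD box in target genes, of which the Id genes are the classic readout. Secreted antagonists such as noggin and gremlin hold the ligand away from its receptors and are themselves often induced by BMP signals, which makes a negative feedback loop. In cartilage, BMP signals are needed for the formation, proliferation and maturation of chondrocytes.

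Expression is given in FPKM, a read level scaled by gene length and library size, so levels of different genes can be set side by side per length. Libraries are named by column number, and values stand in the order of columns 0, 1 and 2. Column totals ran from 571180 to 631534 FPKM; read counts were not analysed here, so the depth behind each value is unknown and no counting interval is given. Cops5 was 42.3, 39.8 and 40.1 FPKM in wild-type columns and 17.0, 18.01 and 17.2 FPKM in the mutant ones. Part of the Cops5 RNA thus remained (ratio of means 0.43), and Jab1 protein is not part of these data. The 17 cartilage markers with a row summed to 13664 to 15661 FPKM in wild-type libraries and to 14835, 10536 and 9987 FPKM in mutant columns 0, 1 and 2. Their median log2 difference, mutant minus wild type, was -0.44, and 4 of the 17 had a positive one. At the threshold given below Cytl1 was higher and Matn3 and Comp lower in mutant libraries. A further 5 markers, Col2a1 among them, were not analysed here. Mutant column 0 stood apart in several ways. It held both the X-inactivation transcript Xist (37.3 FPKM) and the Y-linked Ddx3y (7.78 FPKM), while mutant columns 1 and 2 had Xist at 0.0176 and 0.0244 FPKM and Ddx3y at 46.1 and 36.0 FPKM. Wild-type libraries had Xist from 63.1 to 65.9 FPKM and Ddx3y of at most 0.450 FPKM. Y-linked transcripts were thus higher, and Xist lower, in all mutant libraries. Transcripts that mark sex therefore differed together with genotype, and the 2 are not separated by the comparison of groups. Every difference below may hold a part that goes with sex. Fits that add the Y-linked transcripts as a covariate are given beside the results. They cannot settle this, because they rest on mutant column 0, the only library with intermediate levels. The title of wild-type column 0 gives another day of the month (30) than the other titles (24). Since the labels do not establish biological replication, the p-values below rest on library-to-library spread, which may be technical.

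The verbs rose and fell are kept for adjusted p-values below 0.05 in limma, fitted to log2(FPKM + 1) of the 14012 genes whose mean reached 1 FPKM. Differences on that scale are mutant minus wild type. Of the 10 genes 9 were tested, and Msx2 was below the minimum. Msx1 reached it through its mutant values (wild-type mean 0.861 FPKM), so its part in the counts and median below is not independent of the filter. In mutant chondrocytes 4 of the 9 rose (Atoh8, Bambi, Id3 and Id4), against 3.48% of all genes tested that rose. None fell in limma, against 2.59% of all genes tested, with 1 (Nog) lower at an unadjusted p under 0.05. At that unadjusted threshold 7 were higher, against 12.7% of all genes, and the lower share of all genes was 12.0%. In 8 of the tested genes all mutant libraries lay above all wild-type libraries, against 16.3% of all genes tested, and in Nog all lay below, against 15.9%. The median difference of the 9 genes was 0.77 and that of all genes tested 0.00 (-0.0039). In bulk RNA fewer cells of a type and less RNA per cell cannot be told apart.

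**Figure D1:**
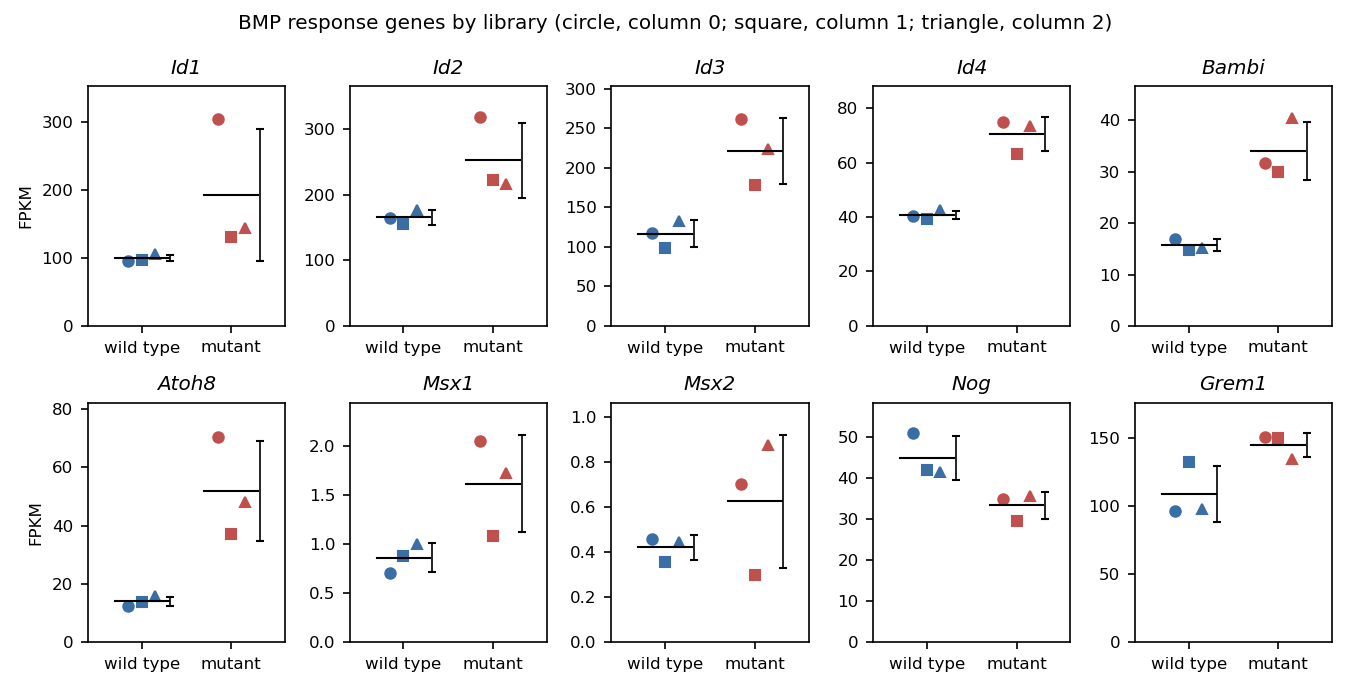
FPKM (vertical axes, each from 0) of the 10 BMP response genes in the 3 wild-type (blue) and 3 mutant (red) libraries; horizontal lines are group means and error bars 1 SD. The mutant points lie above all wild-type points for the 4 Id genes, Bambi, Atoh8, Msx1 and Grem1, below them for Nog, and overlap them for Msx2.

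Sequence upstream of the transcription start was matched in the RefSeq promoter table (GRCm38.p6, the same build as mm10) for 7 of the 10 genes. The 250 bases before the start were searched on both strands for the GC-rich SMAD elements GGCGCC and GGAGCC, for the SMAD box GTCT, and for GGCGCC with GTCT starting 5 bases after its end, which contains both. GGCGCC occurred in 3 of the 7 windows (Id2, Id4 and Grem1), and in 9.59% of all 32851 windows of that length. GGAGCC occurred in 4 of the 7 (Id2, Id3, Id4 and Msx2) and in 26.0% of all windows, and GTCT in 4 of the 7 and in 82.9% of all windows. The combined motif occurred in 0 of the 7 and in 0.0700% of all windows. GC content was 61.6 to 75.6% in the 7 windows, against a median of 52.4% over all. The windows of Id2, Id3 and Msx2 lie before the RefSeq start but wholly inside the annotated span of the gene itself, and overlap an exon of it. The GGCGCC match of Id2 and the GGAGCC matches of Id2, Id3 and Msx2 are therefore within the annotated gene. The windows of 3 genes are printed because they span the results: Id4 rose, Atoh8 had the widest difference of the 10, and the antagonist Grem1 did not pass. Capitals mark GGCGCC and GGAGCC, and all run 5′ to 3′ on the strand of the gene.
Id4, chr13:48260866-48261115, plus strand: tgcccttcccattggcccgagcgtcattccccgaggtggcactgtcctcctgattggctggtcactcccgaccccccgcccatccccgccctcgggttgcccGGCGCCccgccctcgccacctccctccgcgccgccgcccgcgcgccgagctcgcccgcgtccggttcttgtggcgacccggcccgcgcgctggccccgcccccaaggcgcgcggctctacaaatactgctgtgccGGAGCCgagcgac
Atoh8, chr6:72235578-72235827, minus strand: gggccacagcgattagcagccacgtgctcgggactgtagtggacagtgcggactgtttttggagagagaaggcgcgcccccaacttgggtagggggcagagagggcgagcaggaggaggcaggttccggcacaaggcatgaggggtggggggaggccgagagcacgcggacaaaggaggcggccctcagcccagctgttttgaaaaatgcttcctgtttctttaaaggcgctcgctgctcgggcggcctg
Grem1, chr2:113758649-113758898, minus strand: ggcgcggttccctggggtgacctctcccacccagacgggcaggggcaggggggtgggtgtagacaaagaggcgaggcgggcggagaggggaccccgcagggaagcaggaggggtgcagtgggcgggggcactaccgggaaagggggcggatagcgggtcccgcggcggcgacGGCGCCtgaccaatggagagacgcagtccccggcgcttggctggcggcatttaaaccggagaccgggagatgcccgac
The Id4 window held GGCGCC 148 bases and GGAGCC 13 bases before the start, Grem1 held GGCGCC 78 bases before it, and Atoh8 held neither. These are matches of letters in a short window and not binding sites, and elements farther away were not searched.

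The Id proteins are helix-loop-helix proteins without a DNA-binding region that pair with E proteins and keep them off DNA. In all 3 mutant libraries each of the 4 Id genes was above its highest wild-type value, and Id3 and Id4 passed the test. Id4 (chromosome 13, 48261228 to 48266026, plus strand, mm10) was 40.4, 39.3 and 42.5 FPKM in wild-type columns 0, 1 and 2 and 74.7, 63.1 and 73.4 FPKM in the mutant columns. Both groups were tight, with coefficients of variation of 4.01% and 9.01%. The group means were 40.7 ± 1.63 and 70.4 ± 6.35 FPKM (SD, n = 3 each), a ratio of 1.73 and a log2 difference of 0.77 (95% interval 0.56 to 0.98, limma adjusted p = 0.0127). Id4 passed without mutant column 0 or 1 (limma adjusted p = 0.0302 and 0.0187), but not when any wild-type column or mutant column 2 was left out (0.0521 to 0.0602), nor with the Y-linked covariate (0.108). An antisense transcript, A330033J07Rik, lies over Id4 and measured 2.41 to 3.77 FPKM, and whether the counting used strand is not given in the sources used here.

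Id3 (chromosome 4, 136143497 to 136145755, plus strand) was 118, 99.1 and 133 FPKM in wild-type columns and 261, 179 and 224 FPKM in the mutant ones. The lowest mutant value was above the highest wild-type value, and spread was similar in the 2 groups (14.5% and 18.7% of the mean). Means were 117 ± 16.9 against 221 ± 41.5 FPKM, with a log2 difference of 0.91 (95% interval 0.48 to 1.35, limma adjusted p = 0.0433). Id3 did not pass without any 1 of the 6 libraries (adjusted p 0.0537 to 0.133, log2 difference 0.78 to 1.06), nor with quantile normalization (adjusted p = 0.0517), with every gene of the table kept (0.0727), nor with the Y-linked covariate (0.148).

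Id1 (chromosome 2, 152736251 to 152737410, plus strand), the most used BMP reporter gene of the family, was 96.1, 97.7 and 105 FPKM in wild-type columns and 305, 130.2 and 144 FPKM in mutant columns. The wild-type libraries were nearly level, and mutant column 0 was far above both other mutant libraries. The coefficient of variation was 4.88% for wild-type and 50.3% for mutant libraries, and Id1 did not pass (99.7 ± 4.86 against 193 ± 97.0 FPKM, log2 difference 0.84, 95% interval 0.04 to 1.64, limma adjusted p = 0.187). Without mutant column 0 the log2 difference was 0.46 with a limma adjusted p of 0.0562, and with the Y-linked covariate it was 2.65 and passed (0.0119). Id2 (chromosome 12, 25093799 to 25097140, minus strand), the most abundant of the 10 genes in both groups by its mean, was 164, 155 and 177 FPKM in wild-type columns and 318, 223 and 216 FPKM in the mutant ones. It averaged 166 ± 11.2 and 253 ± 57.2 FPKM, and its log2 difference of 0.59 (95% interval 0.17 to 0.996) did not pass (limma adjusted p = 0.104). When protein-coding genes alone were tested, Id2 passed too (limma adjusted p = 0.0460, with 0.0460 to 0.245 over all alternatives). In that fit 6.70% of all genes rose, against 3.48% in the main one.

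The summed level of the Id family was 391 to 458 FPKM in wild-type libraries and 959, 595 and 658 FPKM in mutant columns 0, 1 and 2, with mean sums in a ratio of 1.74. Within that sum Id2 held 39.2 ± 0.452% in wild type against 34.5 ± 2.60% in the mutant, and its 3 mutant shares (33.2, 37.5 and 32.8%) were all under its lowest wild-type share of 38.7%. An exact two-sided permutation test of the 3 against 3 shares gave p = 0.1, the smallest it allows, and 0.4 after Benjamini-Hochberg adjustment over the 4 genes. The shares of Id1, Id3 and Id4 overlapped between groups (exact permutation p = 1.0, 0.3 and 0.9). Mutant column 0 had the highest Id1 share of the 6 libraries (31.8%, others 21.9 to 24.98%), and without it the Id1 difference turned from 1.55 to -1.74 percentage points.

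**Figure D2:**
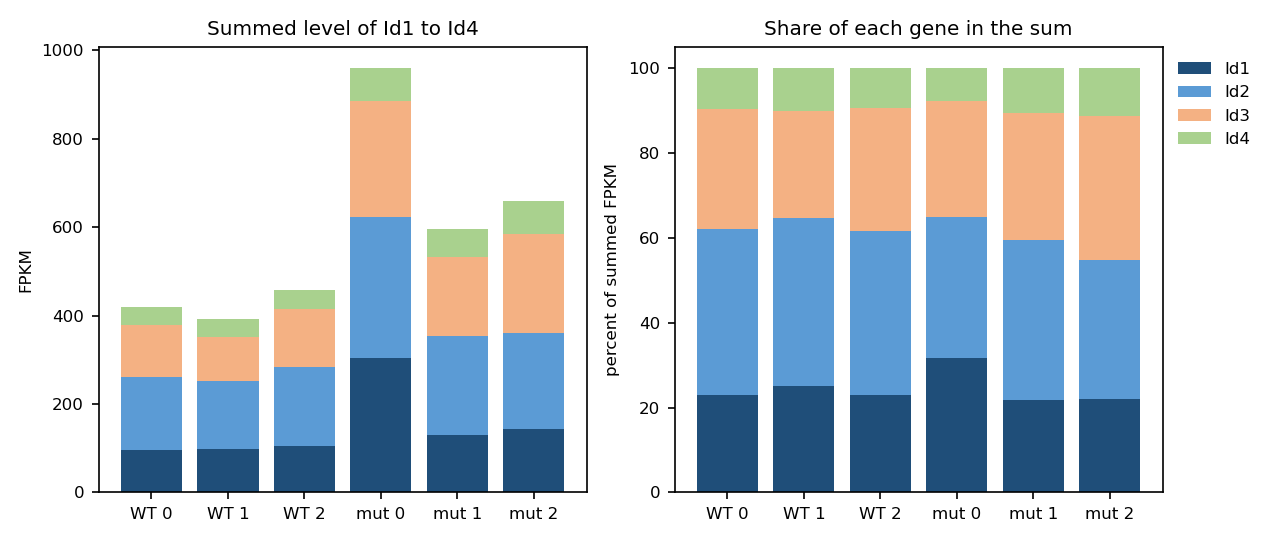
Summed FPKM of Id1 to Id4 (left) and the percentage of that sum held by each (right) in wild-type (WT) and mutant (mut) columns 0, 1 and 2. All mutant sums are above the wild-type sums, mutant column 0 highest at 959 FPKM with an Id1 share of 31.8%.

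Atoh8, a basic helix-loop-helix transcription factor of developing cartilage and other tissues, had the largest difference of the 10 genes. It lies on chromosome 6, 72206177 to 72235577, minus strand. Its level was 12.6, 13.8 and 15.8 FPKM in wild-type columns and 70.5, 37.1 and 48.1 FPKM in the mutant ones. The groups were well apart, with column 0 again the highest mutant library. Means of 14.1 ± 1.599 and 51.9 ± 17.0 FPKM stood in a ratio of 3.69 (log2 difference 1.77, 95% interval 1.19 to 2.35, limma adjusted p = 0.0192). Of all genes tested 1.31% had a larger rise. Without mutant column 0 the rise remained (log2 difference 1.53, limma adjusted p = 0.0194), while it did not pass when any wild-type column or mutant column 2 was left out (adjusted p 0.0672 to 0.0823).

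Bambi encodes a membrane protein that resembles a type I receptor without the kinase part and dampens BMP and TGF-beta signals. Bambi (chromosome 18, 3507923 to 3516404, plus strand) was 17.0, 14.8 and 15.2 FPKM in wild-type columns and 31.6, 30.0 and 40.4 FPKM in the mutant ones, so that here column 2 and not column 0 was the highest. The groups averaged 15.7 ± 1.15 and 34.0 ± 5.597 FPKM (log2 difference 1.06, 95% interval 0.75 to 1.37, limma adjusted p = 0.0150). Bambi passed without each of the mutant columns in turn (limma adjusted p 0.0306 to 0.0355) and not without any 1 of the wild-type columns (0.0555 to 0.0672) or with the Y-linked covariate (0.244).

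The homeobox genes Msx1 and Msx2, targets of BMP signals in limb and craniofacial mesenchyme, were near the lower end of what was measured. Msx1 (chromosome 5, 37820485 to 37824583, minus strand) was 0.704, 0.879 and 0.999 FPKM in wild-type columns and 2.05, 1.08 and 1.72 FPKM in the mutant ones, and entered the test through its mutant values, as its wild-type mean was 0.861 FPKM. It did not pass (log2 difference 0.48, 95% interval -0.01 to 0.96, limma adjusted p = 0.207). Msx2 (chromosome 13, 53466884 to 53473074, minus strand) was 0.461, 0.358 and 0.445 FPKM in wild-type columns and 0.703, 0.302 and 0.875 FPKM in the mutant ones, with overlapping groups and no test. Both were far below the Id genes, of which the lowest wild-type value was 39.3 FPKM.

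The 2 antagonists did not pass and lay on opposite sides. Noggin, encoded by Nog (chromosome 11, 89300638 to 89302332, minus strand), binds BMP2, BMP4 and related ligands. Nog was 51.2, 42.2 and 41.6 FPKM in wild-type columns and 34.9, 29.6 and 35.8 FPKM in the mutant ones. It was the one gene of the 10 with every mutant value below every wild-type value (45.0 ± 5.38 against 33.4 ± 3.37 FPKM, log2 difference -0.42, 95% interval -0.70 to -0.13, limma adjusted p = 0.102). Gremlin, encoded by Grem1 (chromosome 2, 113746164 to 113758646, minus strand), blocks the same class of ligands. Grem1 was 96.6, 132 and 97.9 FPKM in wild-type columns and 151, 149.8 and 135 FPKM in the mutant ones, with wild-type column 1 close to the mutant range. Its means were 109 ± 20.3 and 145 ± 8.87 FPKM (log2 difference 0.42, 95% interval 0.07 to 0.77, limma adjusted p = 0.143). The summed level of both was 139 to 175 FPKM in wild-type and 171 to 185 FPKM in mutant libraries, ranges that overlap.

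**Figure D3:**
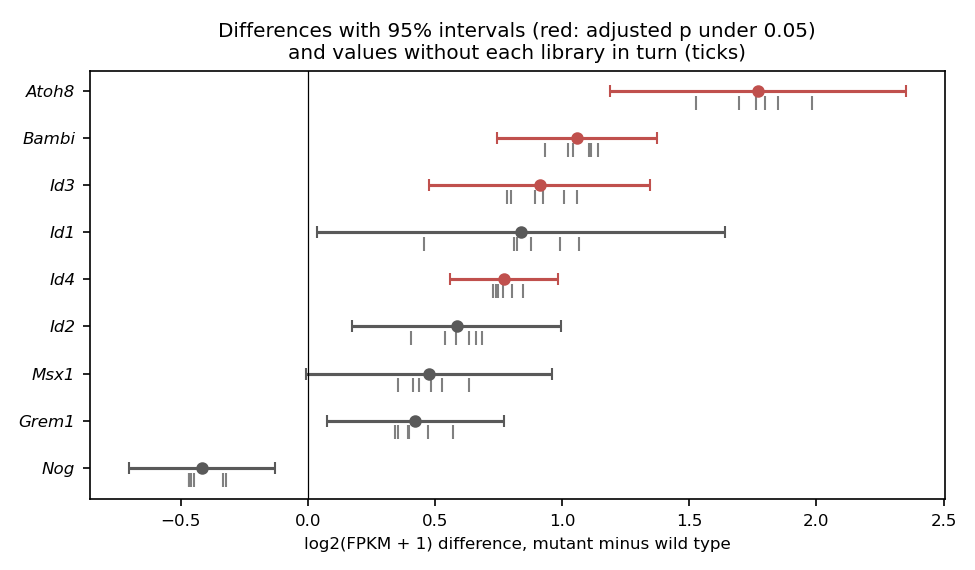
Difference in log2(FPKM + 1), mutant minus wild type, of the 9 tested genes with 95% intervals from limma, and, as grey ticks under each, the values when each library is left out. Atoh8 is the farthest from 0 at 1.77, Nog alone is below 0, and the Id1 tick farthest to the left (0.46) is the value without mutant column 0.

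Ordered by mean level, the wild-type libraries had Id2 first, then Id3, Grem1 and Id1, whose neighbouring ranges overlapped, then Nog and Id4, then Bambi and Atoh8, and last Msx1 and Msx2. Ranges of Id2 and Id3 did not overlap in wild type, nor did those of Id1 and Nog, Id4 and Bambi, Atoh8 and Msx1, or Msx1 and Msx2. In mutant libraries Id2, Id3, Id1 and Grem1 formed 1 run of overlapping neighbours, followed by Id4, Atoh8, Bambi and Nog in another. Nog was thus 5th in wild type and 8th in mutant libraries, and Atoh8 8th and 6th.

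Mutant column 0 was the highest of the mutant libraries for 7 of the 9 tested genes, against 40.3% of all genes tested. In the same library the summed level of 25 immediate early genes, which respond within minutes to growth factors and stress, was 2223 FPKM, against 313 and 332 FPKM in mutant columns 1 and 2 and 233 to 275 FPKM in wild type. Fos was 587 FPKM there, 18.3 and 20.0 FPKM in the other mutant columns and 8.60 to 14.9 FPKM in wild type, and the early phosphatase gene Dusp1 was 175 FPKM against 30.0, 34.5 and 13.7 to 18.8 FPKM. Of 23 tested early genes 22 had a positive log2 difference, and 1, Fosl1, rose (0.648 ± 0.489 to 2.91 ± 0.238 FPKM, limma adjusted p = 0.0381), and was tested through its mutant values, its wild-type mean being below the minimum. The part of this difference in the Id levels was not tested. Without mutant column 0 the log2 differences were 0.46 (Id1), 0.41 (Id2), 0.78 (Id3), 0.73 (Id4) and 1.53 (Atoh8). Their sign could not change, since the groups did not overlap. Bambi, Msx1, Nog and Grem1 then stood at 1.11, 0.36, -0.45 and 0.40, and Id4, Bambi and Atoh8 passed.

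**Figure D4:**
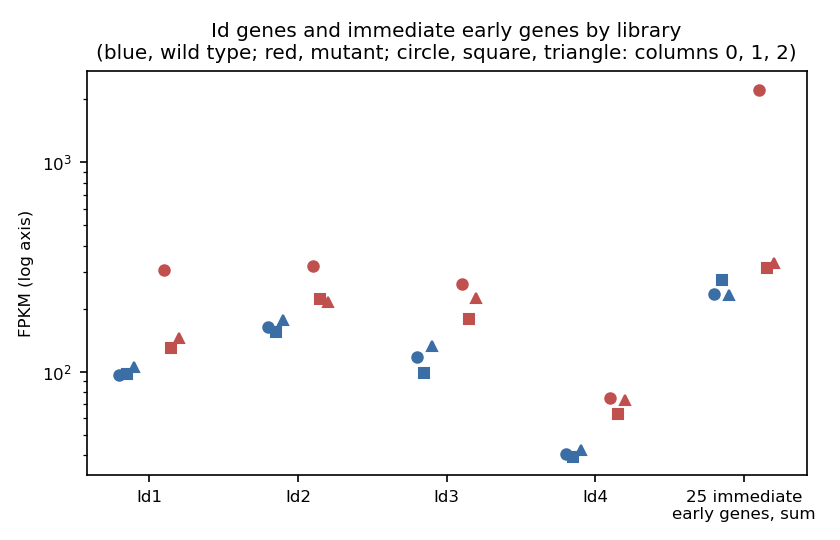
FPKM on a log axis of each Id gene and of the sum of 25 immediate early genes in wild-type (blue) and mutant (red) libraries. The early gene sum of mutant column 0 (circle) is 2223 FPKM and the other 5 libraries lie between 233 and 332 FPKM.

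Markers of other cells also differed between the groups. The 9 erythroid markers with a row summed to 196 to 221 FPKM in wild-type and 15.05 to 49.6 FPKM in mutant libraries, and all 5 tested ones fell: the globin genes Hbb-bs (143 ± 12.8 to 20.0 ± 13.6 FPKM), Hba-a1 (29.4 ± 1.06 to 3.85 ± 2.11 FPKM), Hba-a2 and Hbb-bt, and the heme synthesis gene Alas2, whose mean reached the minimum through wild type. The 13 macrophage and leukocyte markers summed to 113 to 288 FPKM in wild-type and 23.8 to 69.6 FPKM in mutant libraries, with 2 of 12 tested lower, the neutrophil genes S100a8 and S100a9. The 15 skeletal muscle markers summed to 160.5 to 185 and 59.7 to 87.8 FPKM, with 1 of 7 tested lower, Tnnt3 (141 ± 19.9 to 51.8 ± 11.0 FPKM). The 12 endothelial markers summed to 13.7 to 17.3 and 13.6 to 37.0 FPKM, with 1 of 5 tested higher, Erg. The 12 perichondrium and fibroblast markers summed to 1317 to 1320.3 FPKM in wild-type and 835 to 1342.5 FPKM in mutant libraries, with 1 of 9 tested higher (Prrx1) and 2 lower (Dcn and Lum). The 11 osteoblast markers overlapped (216 to 517 and 247 to 318 FPKM), and none of 9 tested passed in limma, nor at an unadjusted p under 0.05. The 13 markers of hypertrophy, the last stage of chondrocyte maturation, summed to 1220 to 1969.9 FPKM in wild-type libraries and to 1402, 2918 and 3422 FPKM in mutant columns 0, 1 and 2. No hypertrophy marker had a limma adjusted p under 0.05; unadjusted, 2 were higher and 4 lower. The most abundant were Spp1, which encodes osteopontin (746 ± 257 and 1673 ± 686 FPKM, limma adjusted p = 0.176), and the collagen gene Col10a1 (449.6 ± 65.2 and 481 ± 248 FPKM, limma adjusted p = 0.942). No marker of these lists was at 0 in all libraries. Their part in the results above was not tested.

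Around the 10 genes, 75 other genes of the BMP pathway from 6 lists were tested, of which 8 rose and 4 fell, and 6.07% of all genes tested passed in either direction. Each gene is counted once in the 75, but some lists share genes. Smad6, Smad7 and Smad9 are in both the SMAD list and that of other BMP-induced genes, so the counts of those lists are not separate observations. Of the 8, Inhba and Inhbb reached the minimum level through their mutant values. With the Y-linked covariate Tgfbr3 still passed and the other 11 did not. The ligand list also held Bmp1, a protease gene, and the activin subunit genes Inhba and Inhbb, and of its 12 tested genes 4 rose and 1 fell, with a median log2 difference of 0.29. Bmp4 of this list was also tested through its mutant values (wild-type mean 0.700 FPKM). The part of Inhba, Inhbb and Bmp4 in the count and median is thus not independent of the filter. The BMP and GDF ligands that passed were Gdf10 and Bmp6, both higher. Gdf10, a divergent ligand also called BMP3b, was 43.4, 48.8 and 55.3 FPKM in wild-type columns and 138, 114 and 131 FPKM in the mutant ones, and rose without each of the 6 libraries in turn as well (log2 difference 1.36, limma adjusted p = 0.00630; 0.0165 to 0.0402 with a library left out), but not with the Y-linked covariate (1.62, adjusted p = 0.0890). Bmp6, a ligand made by maturing chondrocytes, was 14.6, 19.3 and 13.8 FPKM in wild-type columns and 36.9, 30.8 and 34.2 FPKM in the mutant ones (log2 difference 1.06, limma adjusted p = 0.0197; 0.144 with the covariate). Inhba and Inhbb rose from 0.653 ± 0.289 to 2.30 ± 0.374 and from 0.512 ± 0.118 to 1.87 ± 0.441 FPKM, with limma adjusted p-values of 0.222 and 0.551 under the covariate. Bmp1, whose product cleaves procollagen and chordin, fell from 30.3 ± 1.28 to 23.2 ± 0.584 FPKM (0.207 with the covariate). Bmp5 measured 27.5 ± 0.808 and 32.5 ± 6.43 FPKM (limma adjusted p = 0.410).

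Of 11 tested genes of the list of other antagonists, which also held the proteoglycan gene Gpc3, 2 rose, 2 fell and 7 did not pass. Their median log2 difference was -0.26. The 2 that fell, Chrdl1 and Gpc3, lie on chromosome X, and the part of the Xist difference between the groups in this was not tested. Chrdl1, a chordin-like secreted antagonist, was 141, 111 and 147 FPKM in wild-type columns and 57.3, 46.3 and 38.7 FPKM in the mutant ones, the widest fall of the pathway genes (log2 difference -1.48, SE 0.178, limma adjusted p = 0.0150). With the Y-linked covariate its log2 difference was -0.87 and did not pass (limma adjusted p = 0.304). Gpc3, a cell-surface proteoglycan that binds growth factors, fell from 228 ± 29.7 to 138 ± 11.1 FPKM (limma adjusted p = 0.424 with the covariate). Twsg1, which forms a complex with chordin and BMP, was 82.1, 79.8 and 80.6 FPKM in wild-type columns and 129, 119 and 115 FPKM in the mutant ones (log2 difference 0.57, SE 0.0692, limma adjusted p = 0.0150; 0.0855 with the covariate). Nbl1, of the DAN family of antagonists, rose from 1.04 ± 0.313 to 3.17 ± 0.667 FPKM, a log2 difference of 1.03 that was 0.45 with the covariate (limma adjusted p = 0.594). Fstl1 measured 120.1 ± 6.98 and 112 ± 12.0 FPKM (limma adjusted p = 0.539).

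Of 12 receptor and co-receptor genes 1 rose, Tgfbr3 (betaglycan), measured as 7.58, 7.95 and 8.26 FPKM in wild-type columns and 21.4, 14.3 and 13.4 FPKM in the mutant ones (log2 difference 0.93, limma adjusted p = 0.0416; 1.85 and 0.0246 with the Y-linked covariate). The type I receptor gene Bmpr1a, measured 68.0 ± 3.42 and 67.3 ± 4.29 FPKM (log2 difference -0.01, 95% interval -0.20 to 0.17). Neo1 measured 64.4 ± 3.02 and 68.9 ± 5.22 FPKM, and the co-receptor Rgma 6.15 ± 1.123 and 3.78 ± 0.238 FPKM (limma adjusted p = 0.0590). Of 18 SMAD genes and regulators 1 fell, Smad1, which carries the BMP signal, measured as 20.9, 22.9 and 22.3 FPKM in wild-type columns and 14.8, 14.7 and 15.8 FPKM in the mutant ones (log2 difference -0.52, limma adjusted p = 0.0174; 0.174 with the covariate). The other 17 did not pass, among them Smad4 (26.8 ± 2.75 and 29.5 ± 3.65 FPKM), Ppm1a (28.9 ± 1.51 and 33.6 ± 0.666 FPKM) and Tob1 (14.5 ± 1.73 and 21.0 ± 1.84 FPKM, limma adjusted p = 0.0579), and 16 of the 18 had a positive difference, against 49.4% of all genes tested. When protein-coding genes alone were tested, 4 of the SMAD list were higher and 1 lower, while 12.4% of all genes in that fit passed in either direction.

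Of 16 other genes known to be induced by BMPs limma called none. When protein-coding genes alone were tested 4 were higher and 1 lower, while 12.4% of all genes in that fit passed in either direction. With library weights 2 were higher, against 5.82% of all genes, and 1 was higher with the Y-linked covariate and likewise with the filter dropped. In the main fit, at an unadjusted p under 0.05, 5 of the 16 were higher and 2 lower, against 12.7% and 12.0% of all genes tested. The median log2 difference was 0.27. Among the 5, Tbx2 was tested through its mutant values (wild-type mean 0.629 FPKM), so its part in the count and median is not independent of the filter. The inhibitory SMAD gene Smad6, a direct target, measured 7.46 ± 0.660 and 12.0 ± 2.09 FPKM (log2 difference 0.61, limma adjusted p = 0.0632), and the homeobox gene Prrx2 1.78 ± 0.717 and 5.07 ± 1.53 FPKM (limma adjusted p = 0.0634). Cdkn1c, which encodes the cell cycle inhibitor p57, measured 328 ± 41.1 and 215 ± 27.0 FPKM (limma adjusted p = 0.0643), and the phosphatase gene Alpl 17.7 ± 6.34 and 21.2 ± 5.70 FPKM (limma adjusted p = 0.608). Among 11 tested helix-loop-helix genes, only some of whose products pair with Id proteins, 1 rose, Twist1. It went from 4.16 ± 0.352 to 7.39 ± 0.614 FPKM (limma adjusted p = 0.0185, and 0.310 with the covariate). The E protein gene Tcf12 measured 35.6 ± 0.429 and 33.6 ± 1.77 FPKM, Max 35.8 ± 1.11 and 35.4 ± 0.723 FPKM, and Bhlhe41 14.2 ± 3.47 and 5.90 ± 2.30 FPKM (limma adjusted p = 0.0774). Of the 12 pathway genes that passed, 11 lost the call without at least 1 of the 6 libraries and Gdf10 kept it; without mutant column 0 the counts were 8 higher and 2 lower.

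**Figure D5:**
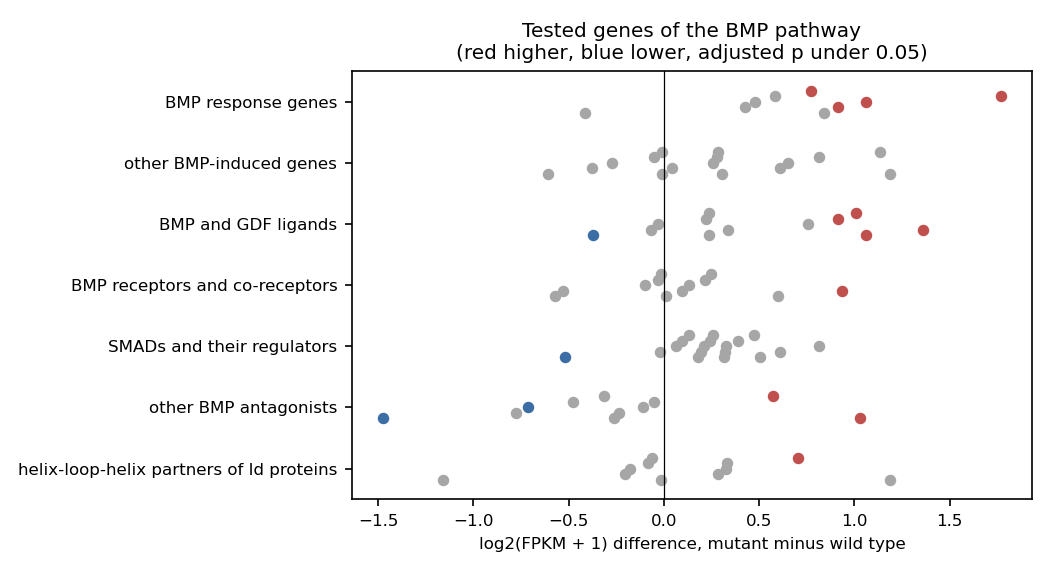
Difference in log2(FPKM + 1), mutant minus wild type, of every tested gene of the 10 BMP response genes and of 6 lists of other pathway genes, one point a gene. Red points rose and blue points fell at an adjusted p under 0.05; the lowest point is Chrdl1 at -1.48 and the highest Atoh8 at 1.77.

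Of 11046 protein-coding genes tested outside the 10, those most like the Id family across the 6 libraries were C1qtnf5, Pde4d, Sowahc, Kcnk5 and Fzd9. Likeness was Pearson's r between a gene's log2(FPKM + 1) and the mean standardized level of Id1 to Id4, and ran from 0.992 to 0.995 over the 6 libraries, which share the genotype difference and the high values of mutant column 0. Fzd9, a Wnt receptor gene, was 21.5, 22.9 and 26.9 FPKM in wild-type columns and 64.0, 36.0 and 43.9 FPKM in the mutant ones. Kcnk5, a potassium channel gene, rose (limma adjusted p = 0.0391), as the other 4 did not, with 8.95, 7.51 and 8.98 FPKM in wild-type columns and 20.5, 14.0 and 14.8 FPKM in the mutant ones. Both had the same order of mutant libraries as Id1, Id3, Id4 and Atoh8 in having column 0 highest and column 1 lowest.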

How the data were processed

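RNA from 3 wild-type and 3 mutant rib chondrocyte samples was sequenced as stranded, ribosomal RNA-depleted libraries with single-end reads of 50 bases, per the labels' protocols. The authors deposited FPKM values for 27734 genes in 1 table; STAR, Cufflinks, Cuffdiff and mm10 are named in the submitters' processing notes, with versions and settings not given in the sources used here. Whether Cuffdiff's between-library scaling was applied to the FPKM is not stated, and depth cannot be read from these values. Descriptions number the samples 0, 1 and 3 and columns 0, 1 and 2, which ties 4 columns to a sample and the others to a group only.

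Gene identifiers were matched without version to GENCODE M21 (mm10) for 27578 genes (99.4%). Of the log2(FPKM + 1) values, those of 14012 genes averaging 1 FPKM or more were fitted in limma 3.58.1 under R 4.3.3 (lmFit, eBayes with trend), with two-sided p-values and Benjamini-Hochberg adjustment over every gene tested. The script was tested on simulated data. The log2 scale with pseudocount 1 understates differences of low genes. The 10 genes, the lists and the tests were chosen with earlier results of these data known. Genes named were all 10, Cops5, each pathway list's 2 smallest p-values, 2 highest means and every passing gene, the highest or passing genes of the marker lists that were described, and the 5 genes most like the Id family. Of 243 list genes 9 were not analysed here. Alternatives were a pseudocount of 0.1 or 0.5, dropping the filter, raising it to 5 FPKM, median-of-ratios and quantile scaling, a robust prior, library weights, a replicate block, the Y-linked level as a covariate, protein-coding genes only, and leaving out each library.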

Additional observations from a re-analysis of the deposited data

How the results depend on the processing

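The sign of the log2 difference of each of the 9 tested genes held under every alternative run (17 each, 16 for Msx1). Their groups did not overlap, so leaving out a library, weighting libraries or another pseudocount could not change it. The filter, prior, block and protein-coding alternatives repeat the main estimate. Only median-of-ratios or quantile scaling and the Y-linked covariate could have changed the sign. No gene of the 10 fell under any alternative, while the number that rose, 4, did not hold under all. It was 0 to 3 with a library left out, 0 without wild-type column 0, 1 or 2 (with 5 or 6 at an unadjusted p under 0.05), 1 without mutant column 2 and 3 without mutant column 0 or 1. All genes called fell to 174 to 192 without a wild-type library and 197 to 666 without a mutant one, from 850. Genes called numbered 461 without the filter, 1488 with library weights and 1373 with protein-coding genes only. With a Y-linked covariate 2 rose, Atoh8 (log2 difference 2.93) and Id1 (2.65, limma adjusted p = 0.0119), and Id2, Id3, Msx1 and Nog moved to 1.40, 1.50, 1.07 and -0.22; 236 genes were called in all. With a pseudocount of 0.1 Msx1 was 0.80. Of the 75 other pathway genes 8 rose and 4 fell; those that rose numbered 5 without the filter, 13 with library weights, 2 with the Y-linked covariate, 15 with protein-coding genes only and 1 to 8 with a library left out. Those that fell numbered 0 with the covariate, 8 with protein-coding genes only and 0 to 2 with a library left out. The cause of these shifts was not tested, and some of the alternatives leave fewer libraries or genes. With column number as a replicate block none of the 10 rose (6 at an unadjusted p under 0.05), 0 pathway genes rose and 0 fell, and 60 genes were called in all. Deviations from the group means correlated at -0.03, -0.04 and -0.02 between same-numbered libraries, and 0 of 6 libraries correlated best with its own number, so the numbers were not taken as pairs. Without mutant column 0 the sign of the Id1 share changed, and that of Id4 without mutant column 1 or 2. No read counts were analysed, so precision rests on the 3 libraries of each group.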

Other observations

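Genes named here were chosen after their values were seen. Smad7, an inhibitory SMAD gene that BMP and TGF-beta signals induce, was 6.09, 6.04 and 6.46 FPKM in wild-type columns and 16.1, 10.4 and 9.40 FPKM in the mutant ones (log2 difference 0.81, limma adjusted p = 0.0681). Hes1, a helix-loop-helix repressor known as a Notch target, was 1.36, 2.62 and 2.15 FPKM in wild-type columns and 9.78, 4.45 and 4.40 FPKM in the mutant ones (log2 difference 1.19, limma adjusted p = 0.0930). Neither passed, both had every mutant value above every wild-type value, and both were highest in mutant column 0. Among the ligands that did not pass, Bmp2 measured 4.47 ± 0.246 and 5.93 ± 0.588 FPKM and Bmp4 0.700 ± 0.0924 and 1.94 ± 0.813 FPKM. Bmp4 was tested through its mutant values, its wild-type mean being below the minimum.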
